A study of Mus musculus with 6 samples.

Results

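Genes of the choroid plexus were followed in brain RNA of control mice and PLDP mice, PLDP being a protease-treated decomposition product of porcine liver. The 10 genes, Ttr, Kl, Folr1, Clic6, Kcnj13, Otx2, Aqp1, Sostdc1, Enpp2 and Prlr, were taken by symbol through GENCODE M21 (build GRCm38), and each matched 1 of the 60354 features in the count files. All 10 were among the 18580 features that passed the filter on low counts and were tested. Male C57BL/6NCrSlc mice, 16 weeks old at the start, were fed for 16 weeks on modified AIN-93M, either holding PLDP at 20% (PLDP mice) or with its calories adjusted (control mice). RNA was extracted from the whole brain after the behavioral tests, during which PLDP was no longer given. The data cover 3 control mice (numbers 2, 5 and 10) and 3 PLDP mice (numbers 17, 22 and 26), each as its own library.

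The choroid plexus is a vascular fold of tissue in the brain ventricles, covered by an epithelium that secretes cerebrospinal fluid. Its cells move ions and water from blood to the ventricle, carry folate and thyroid hormone across, and release proteins such as transthyretin into the fluid. In bulk samples of whole brain, fewer choroid plexus cells and less RNA per cell cannot be told apart. Several of the genes are also made elsewhere in the brain, Enpp2 by oligodendrocytes, Kl and Prlr by some neurons, and Otx2 by neurons of some brain regions.

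Depth was between 18797061 and 23938729 counts per mouse, and mitochondrial genes took from 2.53% to 2.80% of them. PLDP mouse 17 held the lowest value for 21% of all features tested and the highest for 21.7%, more in both directions than any other mouse (at most 16.9% and 16.6%). Expression is given as CPM, the counts of a gene per 1000000 counts of its library after TMM scaling. Genes with an unadjusted p below 0.05 in edgeR's quasi-likelihood test were taken as called, and every p given for a difference between the diets comes from that edgeR test unless another is named. For single values, exact permutation of 3 mice against 3 reaches a two-sided p of 0.1 at the least. Nothing in the labels ties mice to cages or litters. The edgeR p-values set the diet difference against the spread between these mice, moderated over all features.

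Per kilobase of exon, Ttr was by far the most abundant of the 10 genes, with a mean of 554.7 CPM per kilobase over the 6 mice (451.4 to 614.3). Enpp2 followed with 81.1, and their ranges over mice did not overlap. Kcnj13 (7.06) and Clic6 (5.52) came next on this scale and overlapped each other. Aqp1 (3.53), Sostdc1 (2.61), Kl (2.52), Folr1 (2.30) and Otx2 (1.65) formed a series in which each gene's range overlapped that of the next. Prlr was lowest at 0.68 CPM per kilobase, its range below that of Otx2.

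At the unadjusted threshold, 3 of the 10 genes, Ttr, Enpp2 and Folr1, were lower in the PLDP mice and 0 were higher, while 3.69% of all features tested were called lower and 4.91% higher. After Benjamini-Hochberg adjustment over all features, 0 of the 10 passed 0.05, as against 0.0323% of all features. With no filter on low counts Ttr and Enpp2 passed it, as did Enpp2 without PLDP mouse 22. The log2 fold change was below 0 for 9 of the 10 genes and for 50.2% of all features. Their median was -0.17, beside a median of -0.00062 over all features. In 2 of the 10 genes, Ttr and Enpp2, the 3 PLDP mice lay entirely below the 3 control mice, and 14.2% of all features separated the diets in 1 direction or the other. Leaving out PLDP mouse 17 brought the median of the 10 log2 fold changes to -0.025, and leaving out PLDP mouse 22 brought it to -0.29. Without PLDP mouse 22, 5 of the 10 genes were called lower, beside 3.98% of all features.

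**Figure D1:**
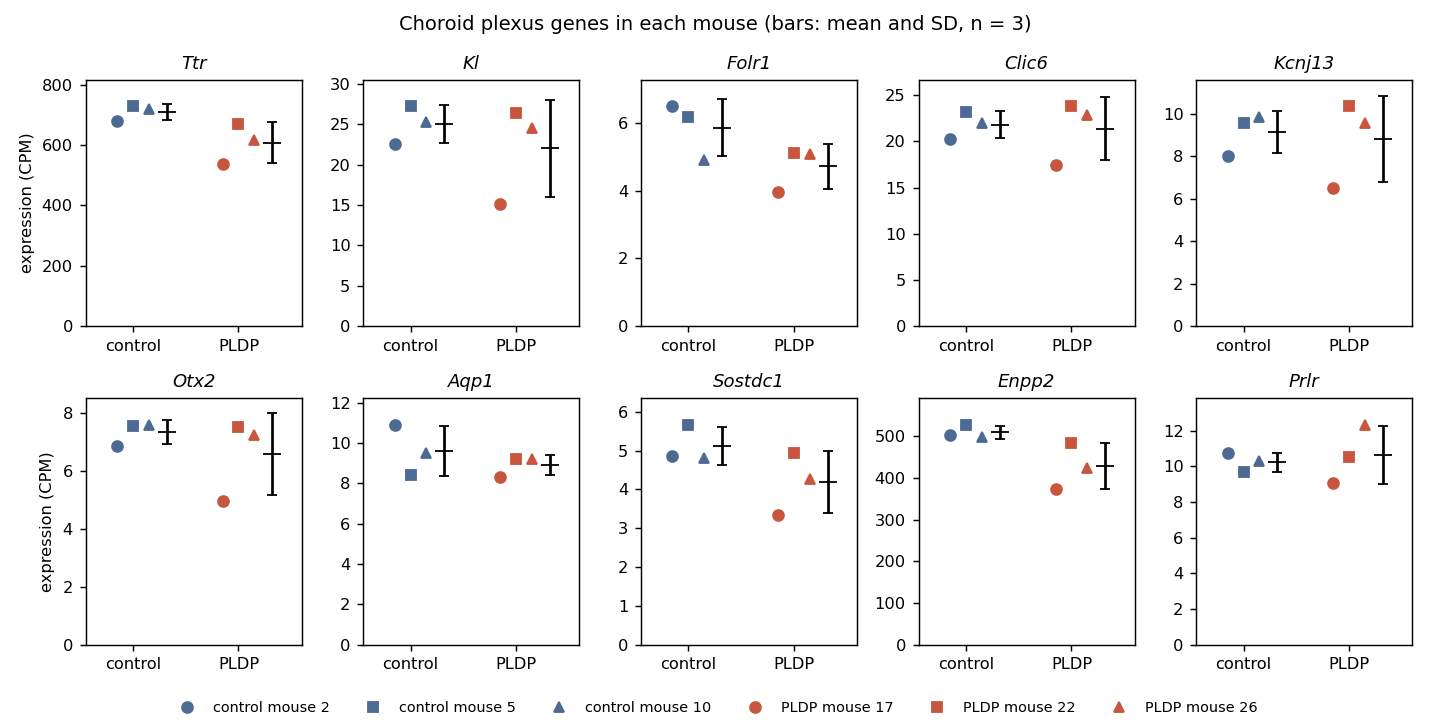
Expression of the 10 choroid plexus genes in each mouse (CPM, linear axes from 0), by diet, with a separate symbol for each mouse and black bars for the mean and SD of 3 mice. PLDP mouse 17 (red circles) is the lowest of the 6 mice in every panel, and only Ttr and Enpp2 show no overlap between the diets.

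Ttr and Enpp2 are the secreted proteins with the highest levels. Ttr (ENSMUSG00000061808, chromosome 18 from 20665280 to 20674321) encodes transthyretin, the carrier of thyroxine and of the retinol-binding protein. It had 679.3, 728.5 and 717.4 CPM in control mice 2, 5 and 10, and 535.4, 669.6 and 617.2 in PLDP mice 17, 22 and 26. PLDP mouse 22 came close to control mouse 2, whereas PLDP mouse 17 was well below every other mouse. Control mice averaged 708.4 ± 25.9 CPM and PLDP mice 607.4 ± 67.7 (SD, n = 3 per diet, edgeR adjusted p = 0.260). On the log2 scale the difference was -0.22 (SE 0.06, unadjusted p = 0.0014). Without PLDP mouse 17 the log2 fold change of Ttr was -0.14, with an unadjusted p of 0.0015 and an adjusted p of 0.0909.

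Enpp2 (ENSMUSG00000022425, chromosome 15 from 54838901 to 54952892, overlapped by 1 gene on the other strand) encodes autotaxin, the enzyme that makes lysophosphatidic acid. It had 501.9, 528.0 and 498.6 CPM in control mice 2, 5 and 10, and 374.1, 484.2 and 424.6 in PLDP mice 17, 22 and 26. As for Ttr, the order within the PLDP mice was 17, 26 and 22 from low to high, and no PLDP mouse reached the lowest control mouse. The log2 fold change was -0.25 (SE 0.06, unadjusted p = 0.0011, edgeR adjusted p = 0.223), and -0.16 without PLDP mouse 17. Enpp2 is shared with oligodendrocytes, of whose 11 listed markers 11 had log2 fold changes below 0 and 5 were called lower, among them Mbp, beside 3.69% of all features. This count was 2 without control mouse 5 and 3 without PLDP mouse 22, where 2.72% and 3.98% of all features were called lower. The summed level of these markers was 5410 to 5816 CPM in the control mice and 5037 to 5656 in the PLDP mice. PLDP mouse 17, which had the least Enpp2, had the most oligodendrocyte signal of the 3 PLDP mice, 5656 CPM. Any part of oligodendrocytes in the Enpp2 difference was not tested.

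Sostdc1 and Kl encode other secreted or shed proteins. Sostdc1 (ENSMUSG00000036169, chromosome 12 from 36314139 to 36318452), an inhibitor of BMP and Wnt signaling, had 4.86, 5.67 and 4.80 CPM in the control mice and 3.35, 4.95 and 4.28 in the PLDP mice. PLDP mouse 22 lay within the control range and the other PLDP mice below it. Its log2 fold change was -0.28 (SE 0.15, unadjusted p = 0.0840), -0.14 without PLDP mouse 17 (unadjusted p = 0.363) and -0.43 without PLDP mouse 22 (unadjusted p = 0.0198). Kl (ENSMUSG00000058488, chromosome 5 from 150952607 to 150993817) encodes klotho, a coreceptor for FGF23 that is also released from the cell. It had 22.6, 27.3 and 25.3 CPM in the control mice and 15.2, 26.4 and 24.6 in the PLDP mice. Kl varied most of the 10 genes, 1.80-fold between its highest and lowest mouse, and PLDP mice 22 and 26 lay within the control range. Its log2 fold change of -0.18 (SE 0.14, edgeR adjusted p = 0.752) became 0.027 without PLDP mouse 17.

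A further group encodes channels and transport proteins of the epithelium. Folr1 (ENSMUSG00000001827, chromosome 7 from 101858331 to 101870788, overlapped on the other strand by Anapc15), the folate receptor that brings folate into cerebrospinal fluid, had 6.49, 6.17 and 4.90 CPM in the control mice and 3.95, 5.12 and 5.08 in the PLDP mice. PLDP mice 22 and 26 were above control mouse 10, so the diets overlapped. It was called lower with a log2 fold change of -0.31 (SE 0.15, unadjusted p = 0.0475, edgeR adjusted p = 0.572). This call was lost without control mouse 2, control mouse 5 or PLDP mouse 17, where the log2 fold changes were -0.24, -0.27 and -0.20, and with DESeq2 or limma voom.

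Clic6 (ENSMUSG00000022949, chromosome 16 from 92485736 to 92541243, overlapped on its own strand by 2410124H12Rik), a member of the chloride intracellular channel family, had 20.3, 23.2 and 22.0 CPM in the control mice and 17.5, 23.8 and 22.8 in the PLDP mice. Kcnj13 (ENSMUSG00000079436, chromosome 1 from 87386363 to 87394729, overlapped on the other strand by Gigyf2) encodes the inwardly rectifying potassium channel Kir7.1. It had 7.99, 9.57 and 9.85 CPM in the control mice and 6.51, 10.4 and 9.57 in the PLDP mice. In both genes the highest of the 6 mice was PLDP mouse 22 and the lowest PLDP mouse 17. The log2 fold changes were -0.030 for Clic6 (SE 0.10) and -0.051 for Kcnj13 (SE 0.14), and without PLDP mouse 17 they were 0.097 and 0.13. Aqp1 (ENSMUSG00000004655, chromosome 6 from 55336432 to 55348555), the water channel of the apical membrane, had 10.9, 8.44 and 9.51 CPM in the control mice and 8.32, 9.22 and 9.19 in the PLDP mice. The control mice covered a wider range than the PLDP mice, and the log2 fold change was -0.11 (SE 0.11, edgeR adjusted p = 0.834). For Aqp1 this value was -0.0096 without control mouse 2 and -0.20 without control mouse 5.

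The remaining genes encode a transcription factor and a receptor. Otx2 (ENSMUSG00000021848, chromosome 14 from 48657677 to 48673819, overlapped by 1 gene on each strand) is a homeodomain factor needed to form and maintain the choroid plexus. It had 6.88, 7.58 and 7.61 CPM in the control mice and 4.97, 7.55 and 7.27 in the PLDP mice. PLDP mice 22 and 26 lay within the control range. The log2 fold change of Otx2 was -0.16 (SE 0.14, edgeR adjusted p = 0.804), and 0.012 without PLDP mouse 17. Prlr (ENSMUSG00000005268, chromosome 15 from 10177238 to 10349180, overlapped on its own strand by Gm21973), the prolactin receptor, had 10.7, 9.66 and 10.3 CPM in the control mice and 9.07, 10.5 and 12.3 in the PLDP mice. It held both the lowest and the highest of its 6 values in the PLDP mice, and was the only 1 of the 10 genes with a log2 fold change above 0, at 0.053 (SE 0.11).

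**Figure D2:**
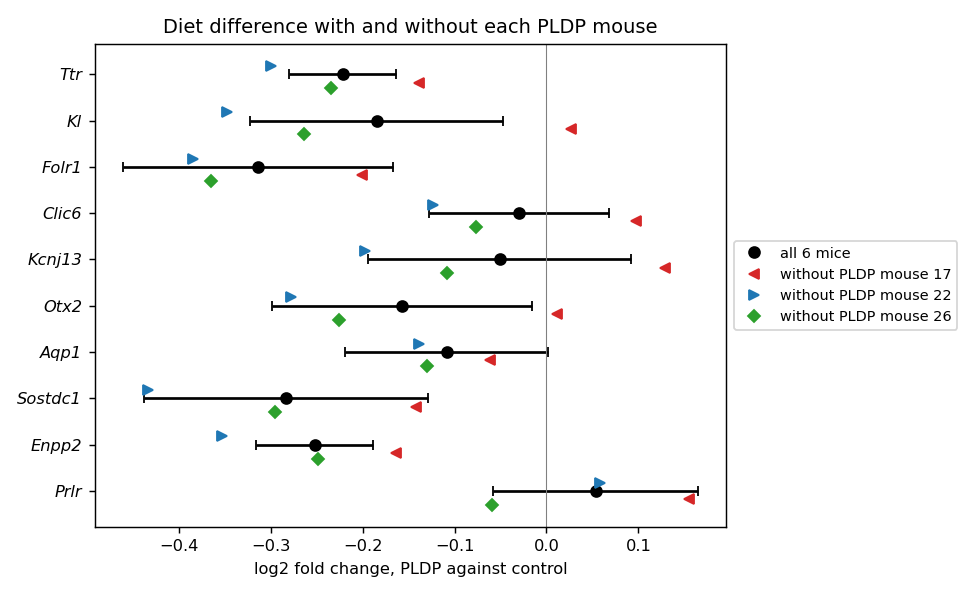
Log2 fold change of PLDP against control for each gene from all 6 mice (black, bars are standard errors) and from fits without PLDP mouse 17 (red), 22 (blue) or 26 (green). Without PLDP mouse 17, Kl, Clic6, Kcnj13 and Otx2 moved from below 0 to above 0, whereas Ttr and Enpp2 stayed at -0.14 and -0.16.

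The 10 genes were then compared over the mice, to see whether they rose and fell together. All 10 had their lowest value in PLDP mouse 17, whose median deviation from each gene's own mean was -0.35 on the log2 scale. The other 5 mice had median deviations between 0.034 and 0.14. In PLDP mouse 17 the deviations ranged from -0.61 for Kl to -0.15 for Aqp1, so the genes were low there by unequal amounts. The highest value was in a control mouse for 7 genes and in PLDP mouse 22 or 26 for the other 3. Counting error was 0.17 on the log2 scale at the lowest count of any of these genes (72 counts for Sostdc1) and 0.013 at that of Ttr, so deviations near 0.1 in the low genes were not resolved at this depth.

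**Figure D3:**
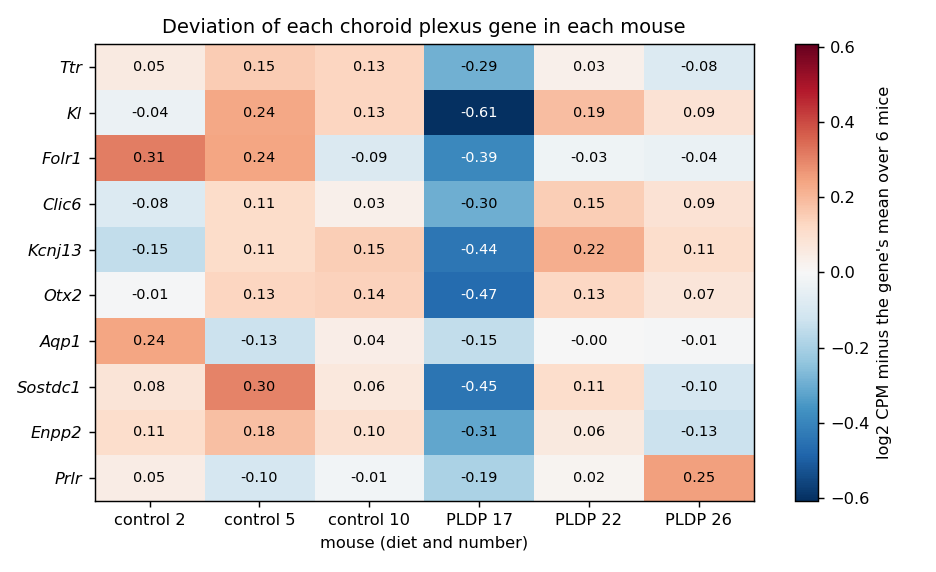
Log2 CPM of each gene (rows) in each mouse (columns) minus that gene's mean over the 6 mice, with blue for lower and red for higher values. The column of PLDP mouse 17 is below 0 in every row, from -0.61 to -0.15, and the other columns hold values of both signs.

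Over the 45 pairs of genes, Pearson correlations of log2 CPM across the 6 mice were all positive, with a median of 0.68 and a range from 0.094 to 0.99. By Spearman's rho the median was 0.49 and 42 of the 45 pairs were positive, the lowest at -0.086. These pairs share libraries and scaling, and the correlations are given as a description. Kl and Otx2 followed each other most closely (r = 0.99), and Ttr followed Enpp2 (r = 0.98) and Sostdc1 (r = 0.96). Aqp1 and Prlr stood apart. The 17 pairs that included either had a median correlation of 0.34, and the 28 pairs among the other 8 genes had a median of 0.83 and a lowest value of 0.41. This split of the genes was made after their values were seen.

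Without PLDP mouse 17, the median over the 45 pairs was 0.026 and 23 pairs were positive. Leaving out any other single mouse gave medians between 0.72 and 0.84. In the 5 remaining mice, 8 pairs stayed above 0.8. These 8 pairs joined Ttr, Enpp2 and Sostdc1 in all 3 pairings (0.84 to 0.94), and Kl, Clic6, Kcnj13 and Otx2 in 5 pairings (0.83 to 0.91). Another 6 pairs fell below -0.8, namely Prlr with Ttr, Enpp2 and Sostdc1 (-0.97 to -0.93) and Aqp1 with Kl, Clic6 and Otx2 (-0.93 to -0.82). Taking deviations from the mean of each diet in place of the values gave a median of 0.68 again, with all 45 pairs positive.

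Each of the other 9 genes was set against Ttr in turn. Enpp2 had a Pearson r of 0.98 (exact permutation p = 0.0028, adjusted over the 9 relations 0.025) and a Spearman rho of 0.94 (exact permutation p = 0.0167, adjusted 0.15). Sostdc1 had an r of 0.96 (exact permutation p = 0.0083, adjusted 0.0375) and a rho of 0.77 (exact permutation p = 0.103, adjusted 0.306). The other 7 relations did not pass 0.05 after adjustment by either measure. Without the 2 mice farthest from the median of Ttr, PLDP mice 17 and 26, r was 0.78 for Enpp2, 0.58 for Sostdc1, 0.45 for Kl and 0.50 for Otx2. In the same mice it was 0.011 for Folr1, 0.12 for Clic6, 0.18 for Kcnj13, -0.58 for Aqp1 and -0.85 for Prlr. The slope of log2 CPM on that of Ttr was 1.11 ± 0.11 (SE) for Enpp2, 1.46 ± 0.22 for Sostdc1 and 1.66 ± 0.45 for Kl, but 0.31 ± 0.39 for Aqp1 and 0.15 ± 0.45 for Prlr. A slope of 1 means that a gene and Ttr changed by the same factor from mouse to mouse.

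**Figure D4:**
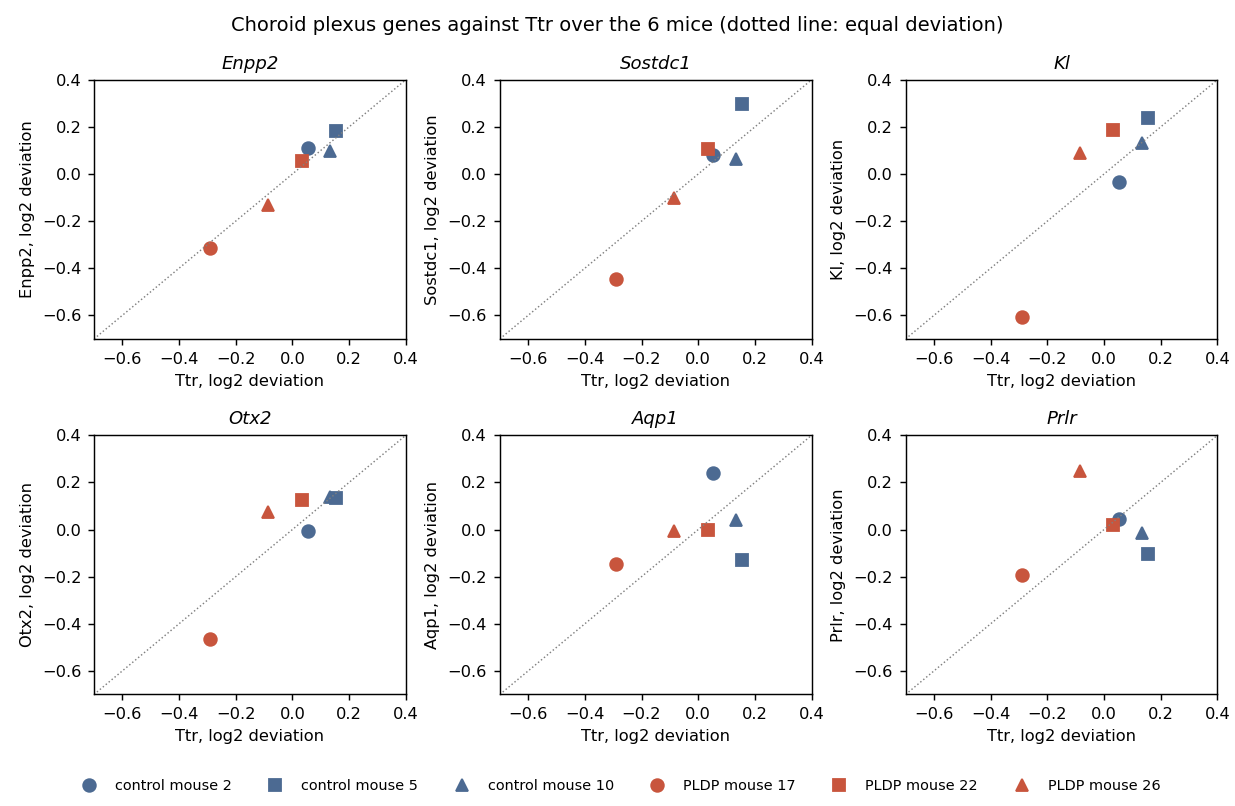
Log2 deviation of Enpp2, Sostdc1, Kl, Otx2, Aqp1 and Prlr from their own means (vertical) against that of Ttr (horizontal) in the 6 mice, with the dotted line marking equal deviations. Enpp2 lies along the line in all mice, while Kl and Otx2 leave it below in PLDP mouse 17 and Aqp1 and Prlr scatter around 0.

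The genes whose pattern over the 6 mice was most like that of the 10, by the mean Pearson r with them, were Tob1, Epb41l3, Etnk1, Pja2 and Ednrb, with means from 0.81 to 0.82. None of them belongs to a choroid plexus list used here, and all 5 were lowest in PLDP mouse 17, Tob1 at 30.9 CPM there and 40.2 to 42.8 in the other mice. The median of this mean r was -0.020 over all features tested, 0.70 over the 10 genes themselves and 0.30 over 28 further choroid plexus genes. It was 0.50 over 7 general neuronal genes.

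The 250 bases before a start site are shown for Kl, Otx2 and Kcnj13, which followed each other closely (r from 0.95 to 0.99). They are from RefSeq (GRCm38.p6), 5′ to 3′ on the strand of the gene. Windows were used for 5 of the 10 genes. Clic6 also followed Kl, Otx2 and Kcnj13 closely (r from 0.94 to 0.98) but was not among those 5. The regions are chr5:150952357-150952606 for Kl (plus strand), chr1:87394730-87394979 for Kcnj13 (minus strand) and chr14:48667645-48667894 for Otx2 (minus strand, the window of its outermost listed start site), and none of them overlaps an annotated exon.
Kl: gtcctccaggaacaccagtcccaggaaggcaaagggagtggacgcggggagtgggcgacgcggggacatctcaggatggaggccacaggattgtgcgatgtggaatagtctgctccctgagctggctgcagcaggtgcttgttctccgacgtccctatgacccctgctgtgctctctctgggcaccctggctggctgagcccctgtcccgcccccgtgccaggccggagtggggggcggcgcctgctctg
Kcnj13: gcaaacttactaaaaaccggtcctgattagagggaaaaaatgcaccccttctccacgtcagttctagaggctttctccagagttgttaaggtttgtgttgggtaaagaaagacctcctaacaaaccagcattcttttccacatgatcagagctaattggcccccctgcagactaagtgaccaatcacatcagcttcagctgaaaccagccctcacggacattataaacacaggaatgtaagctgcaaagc
Otx2: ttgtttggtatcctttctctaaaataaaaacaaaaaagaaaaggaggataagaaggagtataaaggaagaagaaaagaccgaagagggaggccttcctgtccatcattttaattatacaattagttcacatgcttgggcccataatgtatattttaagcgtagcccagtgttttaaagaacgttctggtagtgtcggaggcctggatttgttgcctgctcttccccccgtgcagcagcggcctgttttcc

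The core TAATCC, which OTX2 and related homeodomain proteins are known to bind, was searched on both strands (its reverse is GGATTA). It was in 0 of these 3 windows and in 1 of the 10 windows found for the 5 genes, while 6.25% of all 32851 windows of this length held it. That window belongs to another Otx2 start site, with the letters 211 bases before it, and it lies wholly within annotated Otx2 exons. The 26 bases around the match, chr14:48665305-48665330 (minus strand), are shown with the match in capitals.
Otx2 site: tgtgcccctcGGATTAtctcgttagt
No match says only that these letters are not in these windows.

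Further genes of the tissue were taken from a list of 28 choroid plexus genes, all of which were tested. Of these, 4 were called lower and 0 higher, beside 3.69% and 4.91% of all features. DESeq2 called 2 lower and 0 higher, where it called 1.06% of all features lower. Without PLDP mouse 22 edgeR called 7 lower, beside 3.98% of all features. The median over the list was -0.041 on the log2 scale (16 below 0), and 0.012 without PLDP mouse 17. Those called lower were 1500015O10Rik, which encodes the secreted peptide precursor augurin (-0.36), the homeobox gene Msx1 (-0.37), the coagulation factor gene F5 (-0.31) and Igfbp2, an insulin-like growth factor binding protein (-0.12). 1500015O10Rik had 10.4, 10.2 and 12.1 CPM in the control mice and 7.95, 9.01 and 8.50 in the PLDP mice (edgeR adjusted p = 0.306). Msx1 had 7.55, 6.90 and 7.71 CPM in the control mice and 5.90, 5.66 and 5.56 in the PLDP mice (edgeR adjusted p = 0.336). In both genes the diets did not overlap, as in 4 of the 28 genes and 14.2% of all features. In both, PLDP mouse 17 was close to the other PLDP mice. The most abundant genes of the list were Igfbp2, Ace and Spint2, the latter pair with log2 fold changes of 0.024 and 0.049. The median deviation of the 28 genes was -0.089 on the log2 scale in PLDP mouse 17, compared with -0.35 for the 10 genes above. Single genes of the list had a mean r with the 10 genes from -0.64 to 0.69. Some thus followed the 10 genes and others did not, which the list median does not show.

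Fluid secretion by the epithelium runs on ion pumps, bicarbonate transporters and carbonic anhydrases. Of 14 such genes, all tested, 2 were called lower and 0 higher, beside 3.69% and 4.91% of all features. DESeq2 called 1 lower and 0 higher (1.06% of all features lower), and without PLDP mouse 22 edgeR called 6 lower, where it called 3.98% of all features lower. Their median was -0.096 on the log2 scale, and -0.056 without PLDP mouse 17. Car2, a cytosolic carbonic anhydrase also made by oligodendrocytes, had 194.9, 195.6 and 189.0 CPM in the control mice and 174.6, 170.5 and 175.5 in the PLDP mice. The diets did not overlap in Car2, as in 4 of the 14 genes and 14.2% of all features. Its log2 fold change was -0.16 (SE 0.04, edgeR adjusted p = 0.214). Stk39, a kinase that activates chloride cotransporters, was called lower with a log2 fold change of -0.11. Among the most abundant genes of the list were Atp1b1, a sodium pump subunit, and the kinase Wnk1, with log2 fold changes of -0.061 and -0.021, and both are used widely by neurons and glia.

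Among 37 genes whose products act with those of the 10 genes, such as carriers and receptors for thyroid hormone, folate and lysophosphatidic acid, 32 were tested. Of these, 3 were called higher and 1 lower, around a median of -0.011 on the log2 scale, beside 4.91% and 3.69% of all features. DESeq2 called 1 higher and 1 lower, where it called 2.6% of all features in either direction. Leaving out PLDP mouse 22 gave 0 higher and 2 lower, where 8.18% of all features were called in either direction. Leaving out control mouse 2 gave 1 of each (5.95% of all features). Leaving out control mouse 10 (8.47%) or PLDP mouse 26 (7.24%) gave 2 higher and 0 lower. Stra6, the receptor for retinol-binding protein, had 7.55, 7.53 and 6.50 CPM in the control mice and 8.79, 8.51 and 8.34 in the PLDP mice (log2 fold change 0.25, edgeR adjusted p = 0.527). Lrp4, a receptor that binds inhibitors of Wnt signaling, and Folr2, a folate receptor of macrophages, had log2 fold changes of 0.15 and 0.84, Folr2 at a mean of only 0.48 CPM. Aqp4, the water channel of astrocytes, was called lower with -0.11. In 7 of the 32 genes, these 4 among them, the diets did not overlap, beside 14.2% of all features. Besides Aqp4, the most abundant genes were Thra, a thyroid hormone receptor, and Plpp3, an enzyme that degrades lysophosphatidic acid, with log2 fold changes of -0.019 and -0.069.

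Markers of other tissues were set beside these values. The median log2 deviation in PLDP mouse 17 was 0.12 for 9 ependymal genes, 0.097 for 10 meningeal genes, 0.031 for 11 oligodendrocyte genes, 0.072 for 8 endothelial genes, -0.0038 for 6 hypothalamic genes and -0.034 for 7 neuronal genes. Of 12 ependymal markers, 9 were tested, and edgeR at an unadjusted p under 0.05, like DESeq2 and limma voom, called 0. Of 8 endothelial markers 3, Pecam1, Slc2a1 and Flt1, were called higher and 0 lower, beside 4.91% and 3.69% of all features. DESeq2 also called 3 higher, where it called 2.6% of all features in either direction. The summed level of the 8 markers was 305.9 to 319.0 CPM in the control mice and 327.9 to 337.3 in the PLDP mice. The highest sum was in PLDP mouse 17, and the part of these markers in the choroid plexus result was not tested. The summed level of hypothalamic markers was 56.7 to 59.1 CPM in the control mice and 48.1, 52.8 and 54.2 in PLDP mice 17, 22 and 26. Of the 6 tested genes, 1 was called lower and 0 higher, beside 3.69% and 4.91% of all features. DESeq2 called 0 (2.6% of all features in either direction), as did edgeR without control mouse 2 (5.95%). Without control mouse 5, 2 were called lower and 1 higher, where 6.49% of all features were called in either direction. The gene called with all mice, Pmch, which encodes melanin-concentrating hormone, had 7.67 CPM in PLDP mouse 17 and 14.2 to 16.7 in the other mice, and its mean r with the 10 genes was 0.81. Without Pmch, left out after its low value in PLDP mouse 17 was seen, the sums were 40.0 to 44.1 CPM in the control mice. They were 40.4, 38.6 and 39.1 in PLDP mice 17, 22 and 26. Leaving Pmch out by itself raises PLDP mouse 17 against the other mice, so the order of these sums is no test. Any part of the hypothalamus in the choroid plexus result was not tested. Foxj1, a defining marker of ependymal cells, and Mia were listed at 0 counts in all 6 mice. In contrast, 10 of 10 tested hindbrain markers were called lower in the PLDP mice, with summed levels of 147.2 to 160.3 CPM in the control mice and 115.4, 77.2 and 108.0 in PLDP mice 17, 22 and 26. With all mice edgeR called 3.69% of all features lower. DESeq2 called 6 of 12 hindbrain markers lower, where it called 1.06% of all features lower. Without PLDP mouse 22 edgeR called 6 of 10 lower, beside 3.98% of all features. The hindbrain median went from -0.92 to -0.56 on the log2 scale without PLDP mouse 22, and to -1.41 without PLDP mouse 17. The hindbrain sum was thus highest among the PLDP mice in the mouse with the lowest choroid plexus genes, and lowest in PLDP mouse 22, whose choroid plexus genes were near those of the control mice. Any part of the brain regions held by each sample in the choroid plexus result was not tested.

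**Figure D5:**
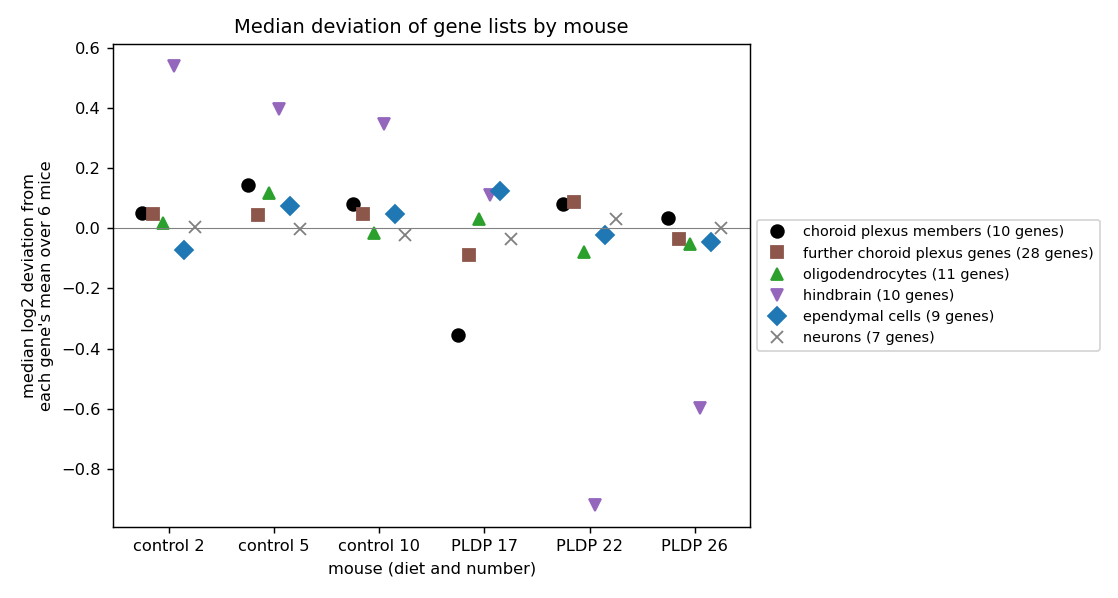
Median over the genes of each list of the log2 deviation from each gene's mean over the 6 mice, for each mouse (symbols are offset sideways for reading). The 10 choroid plexus genes (black) are at -0.35 in PLDP mouse 17 and between 0.034 and 0.14 elsewhere, whereas hindbrain genes (violet) are lowest in PLDP mouse 22.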

How the data were processed

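Whole brains of 3 control mice and 3 PLDP mice were analysed from stranded libraries of polyadenylated RNA. The authors deposited whole-number read counts per gene, 1 file per mouse, without normalization. Their processing notes list cutadapt 2.9, HISAT2 2.2.0, featureCounts 2.6.0 and DESeq2 1.6.3 and the builds GRCm38 and GRCh38, without roles. Coordinates here are those of GRCm38. Strand setting and annotation are not given in the sources used here, so levels of genes that overlap others are uncertain. Identifiers were matched to GENCODE M21, which held 54777 of 55034.

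The analysis of the counts used edgeR 4.0.16 (R 4.3.3). Features were filtered with filterByExpr (minimum count 10, minimum total 15), scaled by TMM and tested with diet alone in the model (glmQLFit, then glmQLFTest). Standard errors were the log2 fold change divided by the square root of F. Correlations used log2 CPM with a prior count of 2. Alternatives were no filter, 10 counts in every mouse, other scalings, DESeq2 1.42.0, edgeR's exact test, limma 3.58.1 voom and leaving out each mouse. Exact permutation tests used all 720 pairings. Plots used matplotlib 3.10.9.

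The 10 genes and all lists were chosen with earlier results of these data known. Named genes were the 10, up to 3 called and 3 most abundant genes of the 3 choroid plexus lists, and the 5 most similar genes with a mean of at least 1 CPM and a gene symbol. From the lists of other cell types and regions, fewer are named. A gene that this rule names is not reported here. Foxj1 and Mia were chosen after their values were seen. Each mouse was 1 replicate.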

Additional observations from a re-analysis of the deposited data

How the results depend on the processing

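Across the other filters, scalings and tests, 0 of the 10 genes was called higher and 2 to 4 were called lower. The share of all features called lower in these fits was 1.06% with DESeq2 (2 of the 10 genes) and 2.9% with no filter (4 of the 10). It was at most 3.89%, with library size only. The median log2 fold change was between -0.20 and -0.17. Leaving out 1 mouse gave 2 to 5 genes called lower (2 without control mouse 2 or 5 or PLDP mouse 17, 5 without PLDP mouse 22). The share of all features called lower in these fits was 2.59%, 2.72%, 5.69% and 3.98%, in that order. The median correlation over pairs was 0.026 without PLDP mouse 17 and at most 0.84, without control mouse 2. With Spearman's rho it was 0.49. Single log2 fold changes turned sign without PLDP mouse 17 for Kl, Clic6, Kcnj13 and Otx2, without control mouse 5 for Clic6, without control mouse 10 for Kcnj13 and without PLDP mouse 26 for Prlr. Over the fits without 1 mouse they ranged from -0.35 to 0.027 for Kl, -0.12 to 0.097 for Clic6, -0.20 to 0.13 for Kcnj13, -0.28 to 0.012 for Otx2 and -0.059 to 0.15 for Prlr. The causes were not tested. Ttr and Enpp2 kept an unadjusted p under 0.05 in every fit. Their adjusted p ranged from 5.97e-06 to 0.641 for Ttr and from 3.58e-07 to 0.625 for Enpp2, lowest in both with no filter on low counts. Without PLDP mouse 22 that of Enpp2 was 0.0130. In all, 1598 of 18580 features (8.6%) were called in the edgeR fit and 938 of 36099 (2.6%) with DESeq2. No paired analysis was possible because the mouse numbers of the diets differ. Depth limits the genes near 100 counts.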
